A study of Mus musculus with 8 samples.

Results

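The genes of fatty acid uptake and oxidation described here are 42 of the 33641 genes with values in the deposited files. They were chosen by name, from fatty acid transport, activation, mitochondrial and peroxisomal β-oxidation and ketone metabolism. Poly(A) RNA-seq was done on interscapular brown adipose tissue (BAT) of C57BL/6 mice aged 28 weeks, to find genes whose expression depends on the RNA binding protein HuR. Of 8 libraries, 3 were labelled wild-type (A7, A8 and A12; control) and 5 were labelled HuR knockout (A24, A25, A26, A29 and A31; *Adipo-HuR-/-*). The *Adipo-HuR-/-* mice carried floxed alleles of *Elavl1*, the gene of HuR, with Cre recombinase under the adiponectin promoter, which acts in adipocytes. By this design the vessels, immune cells and other cells of BAT would keep the gene, which was not tested here. Controls were littermates that either had no Cre (flox/flox or wt/flox) or had Cre with wild-type alleles, and the genotype of each control library is not given in the sources used here. Diet and treatment are not given in the labels. Total counts were 50673814 in A12, 51751002 in A8 and 60622522 in A7, and 58727739 in A31, 50893173 in A29, 67498055 in A26, 17558090 in A25 and 18264754 in A24.

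BAT burns fatty acids to make heat. Fatty acids enter the adipocyte through CD36 and fatty acid transport proteins, are held in the cytosol by fatty acid binding proteins, and are joined to coenzyme A by acyl-CoA synthetases. The carnitine shuttle carries long acyl chains into mitochondria, where each round of β-oxidation removes an acetyl-CoA by dehydrogenation, hydration, a further dehydrogenation and thiolysis, and electrons pass through the electron transfer flavoprotein to the respiratory chain.

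*Elavl1*, the targeted gene, was at 49.2 CPM in A12, 48.0 in A8 and 50.6 in A7, and at 61.2 in A31, 61.3 in A29, 43.4 in A26, 47.3 in A25 and 61.9 in A24. Its mean was higher, not lower, under the *Adipo-HuR-/-* label (49.3 ± 1.28 CPM (SD, n = 3) against 55.0 ± 8.95 CPM (SD, n = 5); log2 fold change 0.16, SE 0.162, adjusted p = 0.667 in edgeR's quasi-likelihood test and the Benjamini-Hochberg method over all genes tested), with overlap of the groups (by two-sided exact permutation, p = 0.357). CPM is the count scaled to a common total by edgeR's TMM method, which takes the bulk of genes as level. The paper and the labels give the sizes of the groups the opposite way round. Groups are named by their labels here, and if the labels were exchanged, each direction below would turn. The paper reports most changed genes, *Ryr1* among them, as decreased in *Adipo-HuR-/-* mice. Under the labels, 69 of the 105 genes past the threshold given below were lower and 36 higher. This direction depended on scaling, and on total counts alone 25 were lower and 96 higher. *Ryr1*, a skeletal muscle marker, had a log2 fold change of -4.34, but A12 lay among the libraries labelled *Adipo-HuR-/-*. Whether the labels were exchanged was not tested.

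Libraries differed in other measures too, and 2 of these separated the groups. Transcripts of the mitochondrial genome took 27.2% in A12, 33.1% in A8 and 17.3% in A7, and 22.4% in A31, 26.5% in A29, 25.6% in A26, 14.3% in A25 and 21.6% in A24. The 10 genes with the most counts in a library took 34.0% in A12, 36.5% in A8 and 30.1% in A7, against 24.9% in A31, 28.9% in A29, 29.4% in A26, 20.8% in A25 and 26.6% in A24, higher in each library labelled control than in any labelled *Adipo-HuR-/-*. Transcripts annotated as retained introns took 1.44% in A12, 1.74% in A8 and 1.79% in A7, and 2.07% in A31, 2.33% in A29, 1.91% in A26, 2.52% in A25 and 2.24% in A24, lower in each library labelled control. Of 20 skeletal muscle markers, all tested, 2 (*Myh7* and *Myl1*) were past the threshold given below, both with lower values under the *Adipo-HuR-/-* label, and 4 passed in DESeq2's Wald test. At an unadjusted p under 0.05 there were 16 of 20 (80.0%, against 17.0% of all genes), and 19 of 20 had log2 fold changes below 0, with a median of -4.54. Summed, the 20 markers were at 585 CPM in A12, 3356 in A8 and 4476 in A7, and at 1201 in A31, 651 in A29, 598 in A26, 880.1 in A25 and 1291 in A24. *Car3*, the most abundant, made up 1238 CPM of this sum in A24 and 524 in A12 but 244 in A7, and was the 1 marker with a log2 fold change above 0. None was at 0 in every library, and 4 of the 20 were above 1 CPM in every library. *Acta1*, skeletal muscle actin, was at 0.104 CPM in A12, 319.8 in A8 and 619 in A7, and at 54.0 in A31, 0.246 in A29, 0.252 in A26, 0.0949 in A25 and 0.395 in A24. Muscle markers were thus high in A7 and A8 and raised in A31. The part of these differences in the results below was not tested except where a value is given.

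Markers of the labelled tissue were present. *Ucp1*, the uncoupling protein of brown adipocytes, was at 9483 CPM in A12, 11438 in A8 and 4843 in A7, and at 9475 in A31, 7213 in A29, 7636 in A26, 4251 in A25 and 10703 in A24. All 10 brown adipocyte markers and all 8 adipocyte markers were above 1 CPM in every library, and none of either list was past the threshold. At an unadjusted p under 0.05 there were 1 and 3 (10% and 37.5%, against 17.0% of all genes). In DESeq2's Wald test 0 and 1 were past it (12.5% of the adipocyte markers, against 5.54% of all genes). Among adipocyte markers, 5 of 8 had log2 fold changes below 0, but *Cfd* was higher without overlap (12.5%, against 5.37% of all genes). It was at 21.3 to 104 CPM in the libraries labelled control and 133 to 375 in the others. Of 10 endothelial, 10 macrophage and 7 tested lymphocyte markers, none was past the threshold either (0 in edgeR or DESeq2). At an unadjusted p under 0.05 there were 2, 0 and 1 (20%, 0% and 14.3%). Endothelial markers, with *Aqp1* the most abundant, had log2 fold changes above 0 in 10 of 10, with a median of 0.28, and summed to 687 CPM in A12, 521 in A8 and 759 in A7, and to 733 in A31, 818 in A29, 859 in A26, 807 in A25 and 581 in A24, with 2 of the 10 higher without overlap (20%, against 5.37% of all genes). Macrophage markers, with *Lyz2* the most abundant, had log2 fold changes below 0 in 9 of 10, with a median of -0.23, and summed to 165 CPM in A12, 46.0 in A8 and 135 in A7, and to 90.4 in A31, 80.9 in A29, 86.8 in A26, 116 in A25 and 157 in A24. In bulk tissue, fewer cells of a type and less RNA per cell cannot be told apart.

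No gene of fatty acid uptake or oxidation was past the threshold, an adjusted p of at most 0.05 with a fold change of at least 1.5. All 42 passed edgeR's filter on low counts, and 0 of 42 were past it in the quasi-likelihood test, against 105 of all 14851 genes tested (0.707%; 36 higher and 69 lower). At an unadjusted p under 0.05 there were 6 of 42 (1 higher and 5 lower), or 14.3%, against 17.0% of all genes. This was 12 of 42 on total counts alone (28.6%, against 20.1% of all genes) and 3 with muscle markers as a covariate (against 11.5% of all genes). DESeq2's Wald test put 3 of 42 past the same threshold (*Acad10*, *Acsl3* and *Fabp5*), against 823 of all genes (5.54%). The number over all genes varied with the library left out. It fell to 13 without A7, 15 without A25, 10 without A26, 14 without A29 and 17 without A31, and was 190 without A12. Without A24, 32 genes were higher and 54 lower, and without A8, 53 were higher and 92 lower. No gene of the pathway passed in any of these fits. Log2 fold changes of the 42 lay between -1.39 (*Fabp5*) and 1.602 (*Bdh1*), 20 above 0 and 22 below, with a median of -0.05 against 0.000983 over all genes.

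Many of the intervals were wide. The 95% interval of the fold change lay within 1.5-fold in both directions for 10 of 42 genes (23.8%), against 21.5% of all genes. These 10, for which a change of 1.5-fold lay outside the interval, were *Slc27a1*, *Cpt1b*, *Crat*, *Acadvl*, *Acadl*, *Acads*, *Hadhb*, *Eci2*, *Decr1* and *Acat1*. This holds for TMM scaling only, and for *Acadl* narrowly (upper end 1.499). On total counts alone, log2 fold changes of the 10 ran from 0.08 (*Slc27a1*) to 0.39 (*Acadvl*), and intervals were not computed. The median half-width was 0.47 on the log2 scale, against 0.55 over all genes. For the other 32 genes, a p above the threshold does not show that the groups were alike.

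**Figure D1:**
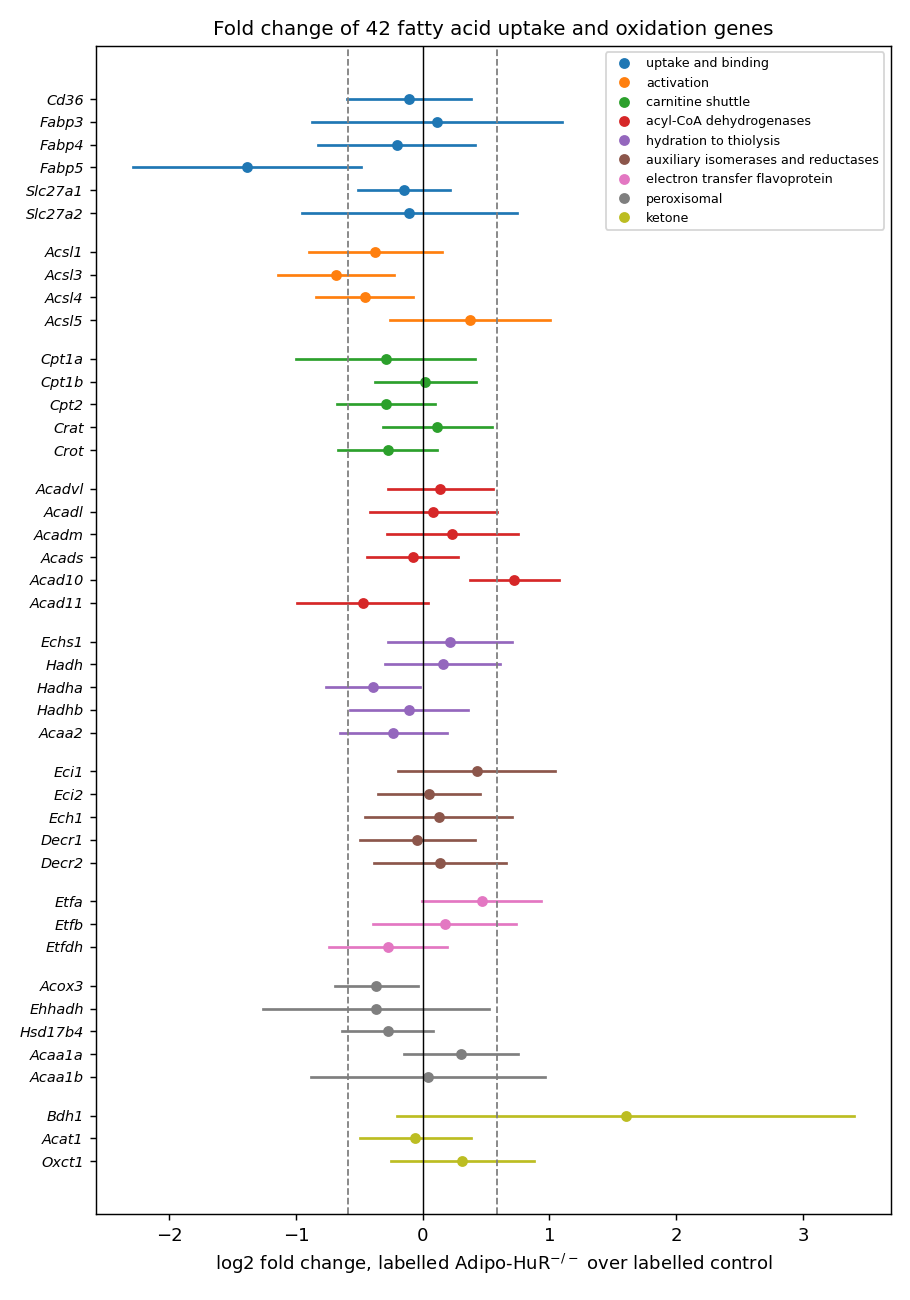
Log2 fold change of each of the 42 genes (points; x axis, libraries labelled Adipo-HuR−/- over libraries labelled control, 5 against 3) with its 95% interval from edgeR's quasi-likelihood fit (bars), grouped by role. Dashed lines mark a fold change of 1.5 in either direction; 10 intervals lie between them.

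Values of this pathway differed among the libraries labelled control. A8 was the highest of the 3 for 29 of the 42 genes and A7 the lowest for 27, with both true of 24. The median difference of the 42 genes from the mean log2 CPM of these 3 libraries was -0.01 in A12, 0.25 in A8 and -0.23 in A7. Values of the other group were 0.05 in A31, -0.13 in A29, 0.08 in A26, -0.21 in A25 and 0.18 in A24, so the libraries labelled *Adipo-HuR-/-* lay between A7 and A8. The median log2 fold change of the 42 genes was -0.20 without A7 and 0.15 without A8. Scaling bore on the direction too. On total counts alone, the median over all genes moved up by 0.23 (log2), 29 of the 42 lay above 0 and their median was 0.21, just under that of all genes, 0.23.

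Levels between genes were compared per length, as TPM (counts divided by transcript length and scaled to the same sum in each library). The range was wide, from 13633 TPM for *Fabp4* to 1.05 for *Bdh1*, as means over all 8 libraries. After *Fabp4* came *Hadhb* (2420.1 TPM), *Fabp3* (2043), *Acadm* (1932), *Acadvl* (1897) and *Acadl* (1712). In all, 12 genes were above 1000 TPM and 9 were below 50. Of the 41 neighbouring pairs in this order, 2 had ranges over the 8 libraries that did not overlap (*Fabp4* above *Hadhb*, and *Crot* above *Cpt1a*). Compared within each library, the higher gene was higher in all 8 for 5 of the 41, these 2 with *Acads* above *Hsd17b4*, *Acaa1a* above *Acaa1b* and *Acsl4* above *Bdh1*. The 42 genes together took 3.60% ± 0.140 of all TPM in the libraries labelled control (SD, n = 3) and 4.002% ± 0.354 in those labelled *Adipo-HuR-/-* (SD, n = 5), a share that also depends on the mitochondrial transcripts above.

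**Figure D2:**
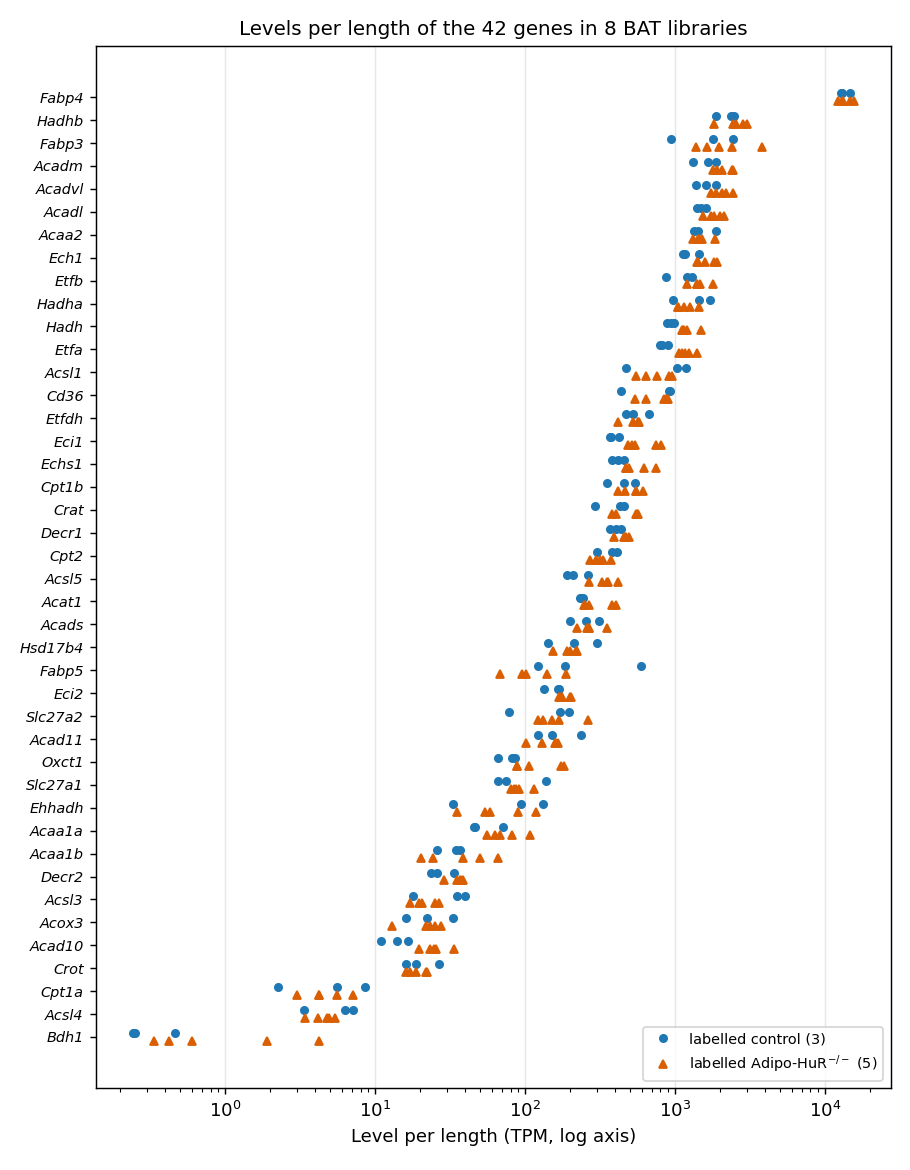
Level per length (x axis, TPM on a log axis) of the 42 genes, ordered by their mean, in the 3 libraries labelled control (circles) and the 5 labelled Adipo-HuR−/- (triangles). *Fabp4* lies above all others in every library and *Bdh1* at the foot, and libraries of both groups lie among each other for most genes.

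Uptake and binding (6 genes) was led by *Fabp4*, the fatty acid binding protein of adipocytes. *Fabp4* was at 8845 CPM in A12, 14538 in A8 and 7067 in A7, and at 9401 in A31, 8188 in A29, 8355 in A26, 6899 in A25 and 11153 in A24. The groups overlapped, with A8 the highest and A25 the lowest library, and the fold change had an interval of 0.565 to 1.33 (log2 fold change -0.21, SE 0.279, adjusted p = 0.759 in edgeR's quasi-likelihood test). It turned above 0 on total counts (0.07) and without A8 (0.15). *Fabp5*, a binding protein also made outside adipocytes, was at 91.2 CPM in A12, 201 in A8 and 354 in A7, and at 63.2 in A31, 135 in A29, 48.8 in A26, 78.8 in A25 and 85.1 in A24. Its description was chosen after its values were seen. The libraries labelled control ranged widely, with A7 far above A12, and A29 lay above A12, so the groups overlapped (log2 fold change -1.39, SE 0.406, adjusted p = 0.122 in edgeR's quasi-likelihood test; adjusted p = 0.0173 in DESeq2's Wald test). The log2 fold change was -0.83 without A7 and -0.73 with muscle markers as a covariate. It was -0.0681 without A7, A8 and A31, where muscle markers were high. That fit left A12 as the only control library, the lowest of them for *Fabp5*, so the part of muscle in the difference was not tested. The adjusted p of *Fabp5* was not below 0.0502 in any edgeR alternative. Of the other 4, *Cd36*, which takes up long-chain fatty acids, *Fabp3*, *Slc27a1* and *Slc27a2* had log2 fold changes from -0.15 to 0.11, with adjusted p from 0.697 to 0.922 in the same edgeR test. Of the 31-base words of *Fabp3* transcripts, 35.2% are shared with the pseudogene *Fabp3-ps1*, which was at most 5.75 CPM.

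Activation (4 genes) was led by *Acsl1*, the main long-chain acyl-CoA synthetase of adipose tissue. *Acsl1* was at 3238 CPM in A12, 1891 in A8 and 2237 in A7, and at 2258 in A31, 1679 in A29, 2302 in A26, 1528 in A25 and 1717 in A24. A12 stood highest and the groups overlapped (log2 fold change -0.37, SE 0.237, adjusted p = 0.464 in edgeR's quasi-likelihood test). *Acsl3*, a synthetase linked to lipid droplets and also named after its values were seen, was at 76.7 CPM in A12, 51.8 in A8 and 57.8 in A7, and at 35.6 in A31, 32.4 in A29, 36.4 in A26, 34.1 in A25 and 55.3 in A24. In 4 of the 5 libraries labelled *Adipo-HuR-/-* it was below every library labelled control, but A24 lay among them (log2 fold change -0.68, SE 0.206, adjusted p = 0.131 in edgeR's quasi-likelihood test; adjusted p = 0.0495 in DESeq2's Wald test). With its transcript with the most counts in place of the sum, the log2 fold change was -0.13. *Acsl4* and *Acsl5* had log2 fold changes of -0.46 and 0.37 (adjusted p = 0.215 and 0.554 in the edgeR test).

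The carnitine shuttle (5 genes) was led by the muscle and brown fat form of the outer membrane carnitine palmitoyltransferase, *Cpt1b*. It was at 963 CPM in A12, 1080.1 in A8 and 877 in A7, and at 1014 in A31, 931 in A29, 1199.8 in A26, 831 in A25 and 967 in A24. The groups overlapped, and the interval of the fold change was 0.772 to 1.34 (log2 fold change 0.02, SE 0.178, adjusted p = 0.963 in edgeR's quasi-likelihood test). The log2 fold change lay below 0 without A7 (-0.05) or without A26 (-0.06). Per length, *Cpt1b* exceeded *Cpt1a*, the liver form, in every library, by a ratio of 53.8 in A12, 155 in A8 and 96.6 in A7, and of 77.04 in A31, 109.6 in A29, 109 in A26, 131 in A25 and 138 in A24. This ratio did not separate the groups (two-sided exact permutation p = 0.714, 0.714 after Benjamini-Hochberg adjustment over 8 ratios). Of the words of *Cpt1b* transcripts, 79.7% are shared with the annotated gene *Gm44502*, so its count is less certain.

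*Cpt2*, the inner membrane enzyme of the shuttle, was set beside *Cpt1b* as 1 of those 8 ratios, which were chosen after gene values were seen. *Cpt2* stood per length to *Cpt1b* at 0.831 in A12, 0.855 in A8 and 0.760 in A7, and at 0.602 in A31, 0.582 in A29, 0.612 in A26, 0.575 in A25 and 0.721 in A24. Each library labelled *Adipo-HuR-/-* was below each labelled control (0.815 ± 0.0492, SD, n = 3, against 0.618 ± 0.0592, SD, n = 5; two-sided exact permutation p = 0.0357, the smallest that 3 against 5 libraries can give, and 0.286 after adjustment over the 8). A ratio within a library does not depend on how libraries are scaled. The pair was picked with values in view and did not pass the adjustment, and neither gene was past the threshold (*Cpt2* log2 fold change -0.29, adjusted p = 0.439 in edgeR's test). *Crat* and *Crot*, the carnitine acyltransferases for short and medium chains, had log2 fold changes of 0.12 and -0.28.

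The acyl-CoA dehydrogenases (6 genes) do the first step of each round. *Acadm*, for medium chains, had the highest mean level per length and was at 2187 CPM in A12, 2605 in A8 and 1489 in A7, and at 2169.8 in A31, 2164 in A29, 2873 in A26, 2221 in A25 and 2896 in A24. A7 was the lowest library, and the groups overlapped (log2 fold change 0.24, SE 0.232, adjusted p = 0.657 in edgeR's quasi-likelihood test). *Acadvl*, *Acadl* and *Acads*, for very long, long and short chains, had log2 fold changes of 0.14, 0.08 and -0.08, each with an interval within 1.5-fold. *Acadvl* overlaps *Dvl2* on the other strand (33.2% of its words), and whether counting used strand is not given in the sources used here. *Dvl2* was at most 14.4 CPM. *Acad11*, which acts on longer chains, had a log2 fold change of -0.47 (adjusted p = 0.338 in edgeR's test).

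*Acad10*, a less studied member of this family (chr5:121621026-121660514, minus strand, GRCm38), was at 35.2 CPM in A12, 30.2 in A8 and 33.0 in A7, and at 48.4 in A31, 45.0 in A29, 60.2 in A26, 63.0 in A25 and 54.5 in A24. Every library labelled *Adipo-HuR-/-* was above every library labelled control, 32.8 ± 2.49 CPM (SD, n = 3) against 54.2 ± 7.61 CPM (SD, n = 5). It was the only one of the 42 genes to lie higher without overlap (2.38%), against 5.37% of all genes tested. On total counts alone, 9 of the 42 lay higher without overlap (21.4%, against 11.9% of all genes) and 0 lower (against 1.45%). The fold change was 1.65 with an interval of 1.30 to 2.10 (log2 fold change 0.72, SE 0.157, adjusted p = 0.0662 in edgeR's quasi-likelihood test), just short of the threshold. The gene was past it in DESeq2's Wald test (adjusted p = 0.000839) and in edgeR on total counts without the genes of the mitochondrial genome (adjusted p = 0.0468), a scaling chosen after seeing the data. Over the edgeR alternatives, its adjusted p lay between 0.0468 and 0.608. The leading protein-coding transcript of 3626 bases was at 29.2 CPM in A12, 13.2 in A8 and 26.8 in A7, and at 31.6 in A31, 24.5 in A29, 45.3 in A26, 46.7 in A25 and 17.97 in A24, with overlap. A24 and A8 instead had 30.96 and 13.6 CPM on a transcript annotated as a retained intron, of 2071 bases, against at most 9.69 in the other 6 libraries. A further protein-coding transcript of 3826 bases, with 7.72% of the counts, was at most 1.51 CPM in the libraries labelled control and at least 3.24 in those labelled *Adipo-HuR-/-*, and was picked for its values. *Acad10* also shares 22.9% of its words with its near copy *Acad12*, which was at 51.4 ± 3.90 CPM (SD, n = 3) and 47.3 ± 6.32 (SD, n = 5), so the division of counts is uncertain.

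Hydration to thiolysis (5 genes) rests for long chains on the trifunctional protein, whose α subunit is encoded by *Hadha* and β subunit by *Hadhb*. *Hadhb*, the highest in this role per length, was at 3514 CPM in A12, 3666 in A8 and 2869.5 in A7, and at 2889.9 in A31, 2454 in A29, 3673 in A26, 2876 in A25 and 3654 in A24. The groups overlapped (log2 fold change -0.11, SE 0.209, adjusted p = 0.837 in edgeR's quasi-likelihood test). Its log2 fold change lay above 0 on total counts (0.13), also without the genes of the mitochondrial genome (0.05). *Hadha* was at 2764 CPM in A12, 2895 in A8 and 2734 in A7, and at 2086 in A31, 2067 in A29, 2416 in A26, 2015 in A25 and 2090.3 in A24. Every library labelled *Adipo-HuR-/-* was below every library labelled control, 2798 ± 85.5 CPM (SD, n = 3) against 2135 ± 160.2 CPM (SD, n = 5). The fold change had an interval of 0.590 to 0.987 (log2 fold change -0.39, SE 0.167, adjusted p = 0.269 in edgeR's quasi-likelihood test). In DESeq2's Wald test the adjusted p was 0.0206, with a fold change short of the 1.5 of the threshold. With *Acox3* below, it was 1 of 2 genes among the 42 to lie lower without overlap (4.76%), against 6.09% of all genes. On total counts alone, its groups overlapped and the log2 fold change was -0.16.

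The lower value of *Hadha* lay mostly in a transcript of 2552 bases, annotated as a processed transcript, which held 64.8% of its counts and was at 1839.9 ± 94.4 CPM (SD, n = 3) against 1325 ± 173 (SD, n = 5), without overlap. The protein-coding transcript of 4017 bases was at 890.3 ± 51.8 CPM (SD, n = 3) and 763 ± 77.3 (SD, n = 5), with A24 among the libraries labelled control. Division of counts between these transcripts is less certain than their total. As a ratio per length, *Hadha* to *Hadhb* was 0.616 in A12, 0.521 in A8 and 0.693 in A7, and 0.470 in A31, 0.583 in A29, 0.490 in A26, 0.479 in A25 and 0.366 in A24. Here A29 lay above A8, so the ranges overlapped (by two-sided exact permutation, p = 0.0714, 0.286 after adjustment over the 8 ratios). The level of *Hadhb* per length includes a transcript of 507 bases annotated as a retained intron, which weighs more per count for being short. It was at 21.8 CPM in A12, 156 in A8 and 48.3 in A7, and at 117 in A31, 63.0 in A29, 5.87 in A26, 200 in A25 and 388 in A24. Its part in the ratio was not tested. Of the words of *Hadhb* transcripts, 19.5% are shared with *Gm13910*. *Echs1*, *Hadh* and *Acaa2*, the hydratase, dehydrogenase and thiolase of shorter chains, had log2 fold changes of 0.22, 0.16 and -0.23.

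*Hadha* and *Hadhb* lie head to head on chromosome 5, so a single stretch of DNA is upstream of both. By GENCODE M21 (GRCm38), *Hadha* starts at 30155162 on the minus strand and *Hadhb* at 30155248 on the plus strand. RefSeq places these starts at 30154980 and 30155253, farther apart. The 85 bases between the GENCODE starts (chr5:30155163-30155247, plus strand) are shown because the pair shares them while its values in the 2 groups differed in overlap. They were read from RefSeq promoters of GRCm38.p6, with the GC box (GGGCGG, either strand) in capitals.
Hadha-Hadhb: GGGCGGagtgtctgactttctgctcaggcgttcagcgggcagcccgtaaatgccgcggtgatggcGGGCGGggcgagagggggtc

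This stretch holds 2 GC boxes and is 69.4% G and C. Of all 32851 RefSeq promoters, 22.4% hold a GC box in the stretch of the same length and place. RefSeq promoters of 300 bases were found for 34 of the 42 genes, 38 in all. On either strand, the GC box was in 27 of these 38 (71.0%) against 35.7% of all promoters. The CCAAT box (CCAAT) was in 17 (44.7% against 37.4%). The half-site AGGTCA of nuclear receptors such as the PPARs was in 6 (15.8% against 16.3%): those of *Acadm*, *Acadvl*, *Cd36*, *Cpt1a*, *Echs1* and *Slc27a2*. A match describes the letters and is not a bound site.

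Auxiliary isomerases and reductases (5 genes) handle double bonds of unsaturated chains. *Ech1*, a dienoyl-CoA isomerase, was at 1064 CPM in A12, 1843 in A8 and 886 in A7, and at 1279 in A31, 1226 in A29, 1271 in A26, 1298 in A25 and 1824 in A24. A8 and A24 were both far above the rest of their groups, and the groups overlapped (log2 fold change 0.13, SE 0.261, adjusted p = 0.849 in edgeR's quasi-likelihood test). The log2 fold change lay below 0 without A7 (-0.08), without A24 (-0.01) and without A24 and A25 (-0.01). *Eci1*, *Eci2*, *Decr1* and *Decr2* had log2 fold changes from -0.04 to 0.43, with adjusted p from 0.480 to 0.937 in edgeR's test.

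The electron transfer flavoprotein takes electrons from the acyl-CoA dehydrogenases, and *Etfdh* encodes the enzyme that passes them to ubiquinone. Among these 3 genes, *Etfb*, the β subunit, was at 505 CPM in A12, 1038 in A8 and 594 in A7, and at 708 in A31, 811 in A29, 663 in A26, 823 in A25 and 1012 in A24. A8 and A24 were again highest, and the groups overlapped (log2 fold change 0.17, SE 0.255, adjusted p = 0.777 in edgeR's quasi-likelihood test), with a log2 fold change of -0.02 without A12. Of its words, 47.4% are shared with *Gm45233*, which was at most 1.80 CPM. *Etfa*, the α subunit, had a log2 fold change of 0.47 (adjusted p = 0.297 in edgeR's test) and *Etfdh* of -0.27. As a sum, *Etfa* overlapped between the groups, but its transcript of 1392 bases, with 92.9% of its counts, was at 574 to 788 CPM in the libraries labelled control and 833 to 1335 in those labelled *Adipo-HuR-/-*, and was also picked for its values. *Etfa* also lay higher without overlap on total counts, with or without the genes of the mitochondrial genome. The subunits were near each other per length, with *Etfa* to *Etfb* at 0.764 ± 0.160 in the libraries labelled control (SD, n = 3) and 0.842 ± 0.187 in those labelled *Adipo-HuR-/-* (SD, n = 5).

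Peroxisomal β-oxidation (5 genes) shortens chains that mitochondria handle poorly. *Hsd17b4*, the D-bifunctional protein, was at 422 CPM in A12, 408 in A8 and 482 in A7, and at 385 in A31, 366 in A29, 419.8 in A26, 299.7 in A25 and 336 in A24. Only A26 of the libraries labelled *Adipo-HuR-/-* lay among those labelled control (log2 fold change -0.27, SE 0.162, adjusted p = 0.426 in edgeR's quasi-likelihood test). *Acox3*, an acyl-CoA oxidase for branched chains (chr5:35583040-35615352, plus strand, GRCm38), was at 55.4 CPM in A12, 61.5 in A8 and 63.7 in A7, and at 49.1 in A31, 49.1 in A29, 53.3 in A26, 44.6 in A25 and 37.6 in A24. Every library labelled *Adipo-HuR-/-* was below every library labelled control, 60.2 ± 4.27 CPM (SD, n = 3) against 46.8 ± 5.97 CPM (SD, n = 5), though A26 and A12 lay close. The interval of the fold change was 0.619 to 0.974 (log2 fold change -0.36, SE 0.147, adjusted p = 0.245 in edgeR's quasi-likelihood test), and on total counts its groups overlapped (log2 fold change -0.13). *Ehhadh*, *Acaa1a* and *Acaa1b* had log2 fold changes from -0.37 to 0.30. *Acaa1a* and *Acaa1b* are near copies that share 16.9% and 40.0% of their words, so their separate values are uncertain.

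Ketone metabolism (3 genes) was led by *Acat1*, the mitochondrial acetoacetyl-CoA thiolase. *Acat1* was at 594 CPM in A12, 782 in A8 and 491 in A7, and at 540.4 in A31, 527 in A29, 569 in A26, 626 in A25 and 726 in A24. The groups overlapped (log2 fold change -0.06, SE 0.197, adjusted p = 0.910 in edgeR's quasi-likelihood test). The log2 fold change lay above 0 on total counts (0.20), on these without the genes of the mitochondrial genome (0.11), without A8 (0.15) and without A7, A8 and A31 (0.04). *Oxct1*, the enzyme by which tissues use ketone bodies, had a log2 fold change of 0.31. *Bdh1*, which interconverts the ketone bodies, was below 1 CPM in 6 libraries, and at 4.09 CPM in A26 and 1.88 in A29. Its log2 fold change of 1.602 was 0.76 without A26 and at most 2.05 when each library was left out. It was the only one of the 42 genes with under 100 counts in any library (the lowest had 6).

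**Figure D3:**
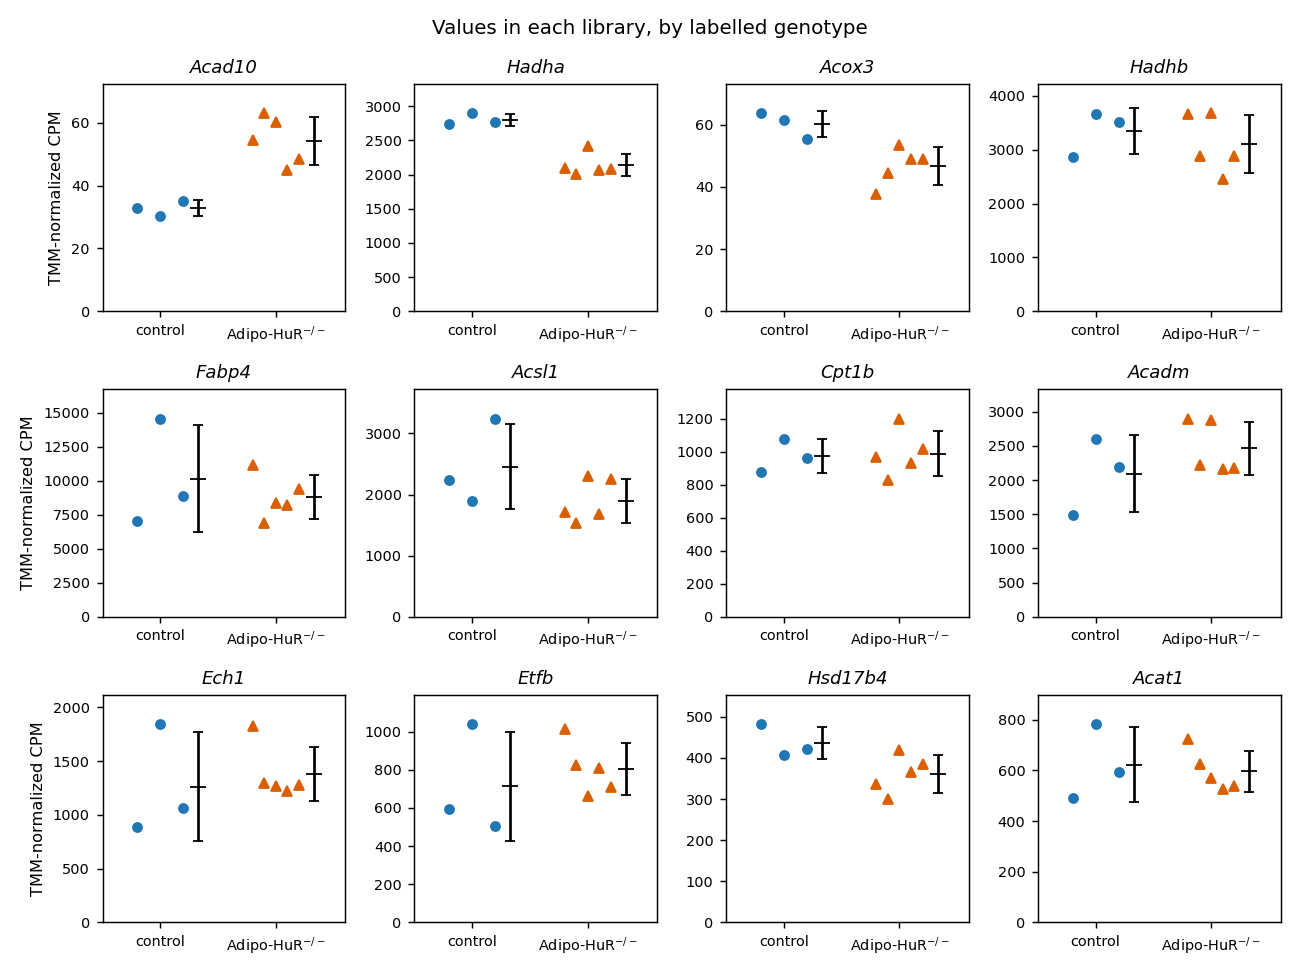
TMM-normalized CPM (y axes, from 0) in each library labelled control (circles, n = 3) and labelled Adipo-HuR−/- (triangles, n = 5), with the mean and SD of each group as a dash with bars. *Acad10*, *Hadha* and *Acox3* lie without overlap of the groups; *Hadhb* and the gene with the highest level per length in each other role overlap.

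Other genes of the pathway were taken from a list of 62 symbols, of which 61 had values in the files and 53 were tested. None of these passed in edgeR's quasi-likelihood test (13 had an unadjusted p under 0.05, or 24.5%, against 17.0% of all genes), and 8 were past it in DESeq2's Wald test (15.1%, against 5.54%). Groups did not overlap for 7 that were higher (13.2%, against 5.37% of all genes) and 3 that were lower (5.66%, against 6.09%). Among the 7, *Slc22a5*, the carnitine transporter of the cell membrane, was at 31.2 to 59.6 CPM in the libraries labelled control and 67.3 to 91.8 in those labelled *Adipo-HuR-/-* (log2 fold change 0.78, SE 0.217, adjusted p = 0.112 in edgeR's quasi-likelihood test). It was past the threshold in edgeR on total counts (adjusted p = 0.0439; range 0.0439 to 0.366). *Acsm3*, a medium-chain acyl-CoA synthetase, was at 47.0 to 75.3 and 75.7 to 157 CPM (log2 fold change 0.97, SE 0.253, adjusted p = 0.0976 in edgeR's quasi-likelihood test). *Gpihbp1*, which anchors lipoprotein lipase in capillaries, was at 55.1 to 61.2 and 63.0 to 79.8 CPM. Also higher without overlap, *Acsm5*, *Cpt1c* and *Oxct2b* were at most 4.45 CPM in any library.

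Of the 3 that were lower, *Abcd2*, a peroxisomal transporter of very long acyl chains, was at 49.4 to 89.2 CPM in the libraries labelled control and 26.7 to 44.1 in those labelled *Adipo-HuR-/-* (log2 fold change -1.02, SE 0.219, adjusted p = 0.0639 in edgeR's quasi-likelihood test). It was past the threshold in edgeR without A8 (adjusted p = 0.0426; range 0.0426 to 0.286). *Acad8*, a dehydrogenase of valine breakdown, was at 59.6 to 81.6 and 43.2 to 54.2 CPM, and *Acox2*, a peroxisomal oxidase of branched chains and bile acid precursors, at 2.65 to 5.41 and 1.28 to 2.56 CPM. Of 17 regulators and PPAR targets, all tested, 0 were past the threshold in edgeR or DESeq2, 1 had an unadjusted p under 0.05 (5.88%) and none lay without overlap, with 7 log2 fold changes above 0 and a median of -0.12. Of 16 genes used as a measure of mitochondrial content, 0 were past it in either test, 2 had an unadjusted p under 0.05 (12.5%), 2 lay lower without overlap (12.5%, against 6.09% of all genes), and the median log2 fold change was 0.02.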

How the data were processed

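Poly(A) RNA-seq of BAT from 8 libraries was analysed by genotype label. The authors deposited estimated counts per transcript, not normalized; for mapping and testing, CLC Genomics Workbench is named in the paper, with an adjusted p of at most 0.05 and at least a 1.5-fold change as limits. The program that wrote the counts, its annotation and its strand setting are not given in the sources used here. The labels do not state that each library is from a separate mouse, so p-values measure spread between these libraries. The paper gives the sizes of the groups in reverse, and the labels were followed.

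Values of 105129 transcripts were summed by symbol and rounded. Genes passed filterByExpr and were normalized by TMM (factors 0.763 to 1.20) and fitted in edgeR 4.0.16 (limma 3.58.1, R 4.3.3), with quasi-likelihood F-tests and Benjamini-Hochberg adjustment over 14851 genes. DESeq2 1.42.0 gave Wald tests. Intervals (95%) used the quasi-likelihood standard error. A two-sided exact permutation test over 56 splits served for single values (scipy 1.17.1, Python 3.11.15, numpy 2.4.6, pandas 2.3.3, statsmodels 0.14.6, matplotlib 3.10.9). Lengths for TPM, positions and transcript types came from GENCODE M21 (GRCm38), which held 99593 of the identifiers with their version and 103723 without it. Transcripts without a length held 0.350% of counts. Promoters (250 bases before to 50 after the start) were from RefSeq, GRCm38.p6.

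Genes and lists were chosen with earlier results of these data known. Of the 42 genes, values in each library are given for those past the threshold, those whose groups do not overlap and the gene with the highest level per length in each role. Pathway neighbours and regulators are named where they passed the threshold or did not overlap, and others are summarized, and exceptions are marked. The values of 1 pathway neighbour that the rule names are not reported here. Lists were pathway neighbours, regulators with PPAR targets, mitochondrial content and 6 sets of cell type markers. Alternatives were DESeq2 size factors, total counts, the Wald test, no low-count filter, a minimum of 10 counts in each library, the transcript with the most counts in place of the sum, muscle markers as a covariate, and leaving out libraries. Scaling to total counts without mitochondrial genome genes was added after seeing the data.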

Additional observations from a re-analysis of the deposited data

Results flagged for a closer look

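In 4 of the 42 genes, 1 library stood far from the other 4 labelled *Adipo-HuR-/-*, by Dixon's test at its 95% value. *Acsl3* was at 55.27 CPM in A24 (next highest 36.38), and *Ech1* at 1824 CPM in A24 (next 1298). *Hadha* was at 2416 CPM in A26 (next 2090.3), and *Oxct1* at 367.4 CPM in A26 (next 224). Chance marks about 1 in 20 such groups. Groups of 3 were not tested, so the control label was not.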

How the results depend on the processing

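The number of genes past the threshold, 105, was 103 with DESeq2 size factors, 137 without a filter and 124 with at least 10 counts in every library. It was 121 on total counts (96 higher and 25 lower, against 36 and 69) and 117 on these without mitochondrial genome genes (87 and 30), a scaling chosen after seeing the data. It was 823 in the Wald test, 16 with the transcript with the most counts, 15 with muscle markers as a covariate, 5 without A24 and A25, 4 without A7, A8 and A31, and 10 (without A26) to 190 (without A12) when each library was left out. Where 1 control library was left, it was assumed to vary like the other group. The cause was not tested.

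Of the 42 genes, 0 were past the threshold in each edgeR fit but that on total counts without mitochondrial genome genes, where 1 was (*Acad10*), and 3 were in the Wald test. Groups did not overlap for 9 genes on total counts, all higher, and for 6 on these without mitochondrial genome genes (5 higher and 1 lower, against 10.02% and 2.54% of all genes), in place of 3. It was also 3 with the transcript with the most counts (1 higher and 2 lower, against 4.34% and 5.68%), where *Etfa* took the place of *Acad10*. The median of -0.05 was 0.21 on total counts and -0.20 (without A7) to 0.15 (without A8) when each library was left out. The cause was not tested.

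Of 481 alternative log2 fold changes of 27 named genes, 455 kept their direction and side of the threshold, 12 passed it and 14 changed direction. On total counts, *Fabp4* was at 0.0671, *Hadhb* at 0.13 and *Acat1* at 0.20, and without mitochondrial genome genes *Hadhb* was at 0.0475 and *Acat1* at 0.11. *Ech1* was at -0.0140 without A24 and A25 and -0.00710 without A24, and *Acat1* at 0.0405 without A7, A8 and A31. When each library was left out, ranges were -0.41 to 0.15 for *Fabp4*, -0.0556 to 0.11 for *Cpt1b* (-0.0489 without A7), -0.0771 to 0.51 for *Ech1*, -0.0222 to 0.55 for *Etfb* and -0.21 to 0.15 for *Acat1*. The cause was not tested. Of the 42 genes, all but *Bdh1* had over 100 counts in every library, and no fit at matched depth was run.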
